A study of Mus musculus with 7 samples.

Results

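Interferon regulatory factors (IRFs) are transcription factors that share a DNA-binding domain and recognise elements with GAAA repeats in the control regions of interferon genes and of the genes that interferons induce. The 8 members described here (Irf1, Irf2, Irf3, Irf4, Irf5, Irf7, Irf8 and Irf9) were taken by gene symbol from the deposited table of 34745 genes, and each symbol occurred in 1 row. All 8 passed the filter on low counts, which left 12668 genes for testing. Naive CD4 T cells, helper T cells that have not met their antigen, had been isolated by negative selection, without culture or treatment, from spleens of 8-week-old male C57BL/6 mice. The 3 wild-type (WT) mice were littermate controls of the 4 mice heterozygous for PIK3CD GOF, a gain-of-function allele of the gene for the p110delta catalytic subunit of phosphoinositide 3-kinase (PI3K). The labels used here name neither the mutation nor how the allele was made or which cells express it. The comparison asks which genes differ in expression between WT and GOF naive CD4 T cells.

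IRF3, IRF5 and IRF7 act downstream of nucleic acid sensors and switch on interferon genes once kinases have phosphorylated them. IRF9 is the DNA-binding part of ISGF3, the complex with STAT proteins through which cells answer type I interferon. IRF1 activates and IRF2 mostly represses the same elements. IRF4 and IRF8 bind DNA with partners of the AP-1 and ETS families. In T cells IRF4 is induced by antigen receptor signals in proportion to their strength, and IRF8 is best known from B cells, dendritic cells and monocytes.

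The stretches in front of 4 members are shown because these genes, Irf1, Irf2, Irf7 and Irf8, changed between the genotypes and differ in the elements they hold. Each is the 250 bases before a RefSeq transcription start, 5′ to 3′ on the strand of the gene (GRCm38.p6, the assembly also called mm10). Capitals mark matches to the ISRE (GAAA, any 2 bases, GAAA, the element bound by ISGF3 and IRFs), the GAS letters TTCNNNGAA (the element bound by STAT dimers) or the ETS and IRF composite element (GGAA, any 2 bases, GAAA), searched on both strands.
Irf1, chr11:53769764-53770013, + strand: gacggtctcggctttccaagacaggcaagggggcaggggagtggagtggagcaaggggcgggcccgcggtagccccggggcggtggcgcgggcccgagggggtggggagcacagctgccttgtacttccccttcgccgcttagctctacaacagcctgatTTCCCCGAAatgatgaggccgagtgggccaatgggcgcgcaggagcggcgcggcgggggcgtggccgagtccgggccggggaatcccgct
Irf2, chr8:46739495-46739744, + strand: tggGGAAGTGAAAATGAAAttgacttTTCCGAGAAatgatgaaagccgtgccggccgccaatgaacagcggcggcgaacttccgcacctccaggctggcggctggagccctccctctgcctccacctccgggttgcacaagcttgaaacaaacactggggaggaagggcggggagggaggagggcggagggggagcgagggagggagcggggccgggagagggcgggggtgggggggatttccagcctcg
Irf8, chr8:120736108-120736357, + strand: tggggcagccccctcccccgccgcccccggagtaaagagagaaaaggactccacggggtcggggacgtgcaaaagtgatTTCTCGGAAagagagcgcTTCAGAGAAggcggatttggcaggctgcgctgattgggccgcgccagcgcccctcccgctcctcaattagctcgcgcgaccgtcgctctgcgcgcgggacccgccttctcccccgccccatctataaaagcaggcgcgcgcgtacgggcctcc
Irf7, chr7:141266425-141266674, - strand: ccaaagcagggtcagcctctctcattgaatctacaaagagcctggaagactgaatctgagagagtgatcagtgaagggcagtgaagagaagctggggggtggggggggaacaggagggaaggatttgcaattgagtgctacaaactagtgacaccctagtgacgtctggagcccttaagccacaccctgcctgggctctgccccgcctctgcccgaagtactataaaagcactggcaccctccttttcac
The Irf1 stretch held 1 GAS match, TTCCCCGAA, from base -90 to base -82 counted back from the start. The Irf8 stretch held 2 GAS matches, TTCTCGGAA from base -171 to -163 and TTCAGAGAA from base -153 to -145. In front of Irf2 a composite match, GGAAGTGAAA, overlapped an ISRE match, GAAAATGAAA, between bases -247 and -232, and a GAS match, TTCCGAGAA, lay at bases -224 to -216. The letters of these elements do not occur in the stretch shown for Irf7, nor in those of the other members or of the second starts of Irf1, Irf8 and Irf9 in the same table. Both Irf9 stretches (from 55603735 and from 55604329) lie inside its deposited locus, which starts at 55603571, and the bases before that locus were not searched. The second stretches of Irf1 and Irf8 also lie inside their loci. The Irf7 stretch reaches into its locus, which ends at 141266481, and the Irf4 stretch reaches into its locus, which starts at 30749226. Over all 32851 promoters in that table, the same length held an ISRE match in 2.98%, a GAS match in 7.02% and a composite match in 2.30%. A match describes these letters and does not show that a factor is bound.

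The libraries held between 14497957 and 16293539 counts, with genes above 0 counts numbering 14042 to 15264 in WT and 15350 to 16030 in GOF. Pik3cd mRNA was at 938 to 1511 CPM (counts per 1000000) in WT and at 538 to 765 CPM in GOF, and a gene count does not show which allele it comes from. The T cell genes Cd3e and Cd4 were at 399 to 405 and 698 to 855 CPM in WT and at 508 to 550 and 1064 to 1163 CPM in GOF, and of 12 T cell markers 5 rose and 3 fell. Markers of several other cell types were higher in GOF libraries. Of all tested genes 16.8% were called higher and 14.5% lower (edgeR adjusted p below 0.05). Of 15 myeloid markers 14 rose, with a summed level of 68.9 to 116 CPM in WT and 207 to 638 CPM in GOF. For neutrophil markers 8 of 9 tested rose (0.766 to 9.48 against 59.6 to 216 CPM), for B cell markers 6 of 11 (32.3 to 105 against 110 to 209 CPM), for NK and CD8 T cell markers 10 of 12 (76.3 to 97.6 against 165 to 232 CPM) and for dendritic cell markers 1 of 5 (8.98 to 13.2 against 22.1 to 37.7 CPM), and 0 members of these lists fell. The dendritic cell marker that rose was Itgax (mean 0.286 CPM in WT and 12.4 CPM in GOF). Flt3, Zbtb46, Tcf4 and Ccr9 did not pass that threshold. For plasma cell markers 1 of 4 rose and 1 fell, and the summed levels overlapped (66.7 to 129 against 99.9 to 144 CPM). Tnfrsf17, Clec9a, Cd209a and Camp had 0 counts in WT. GOF replicates 1 and 3 held more of the myeloid, neutrophil and B cell markers than GOF replicates 2 and 4. In whole-sample RNA a change in the number of cells of a type and a change in RNA per cell cannot be told apart.

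Of the 8 IRF mRNAs 5 were higher in GOF cells (Irf1, Irf4, Irf7, Irf8 and Irf9), 1 was lower (Irf2), and Irf3 and Irf5 did not pass the threshold (edgeR quasi-likelihood, Benjamini-Hochberg adjusted p below 0.05 over all tested genes). Of all tested genes 31.3% were called, 16.8% higher and 14.5% lower. That balance moved with the scaling, from 2130 higher and 1838 lower genes to 2527 and 1428 with total counts alone and to 1870 and 2107 after quantile normalization in limma. WT and GOF libraries were fully apart for 6 of the 8 members, against 39.8% of all tested genes. Log2 fold changes are GOF against WT throughout, and their median was 0.81 for the 8 members and 0.01 for all tested genes. Without GOF replicates 1 and 3 the number of members called higher went from 5 to 3 and the number called lower from 1 to 0, while the calls over all genes went from 2130 higher and 1838 lower to 1074 and 1050. Without GOF replicates 2 and 4, 4 members were called higher and 1 lower, beside 1764 and 1358 over all genes.

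**Figure D1:**
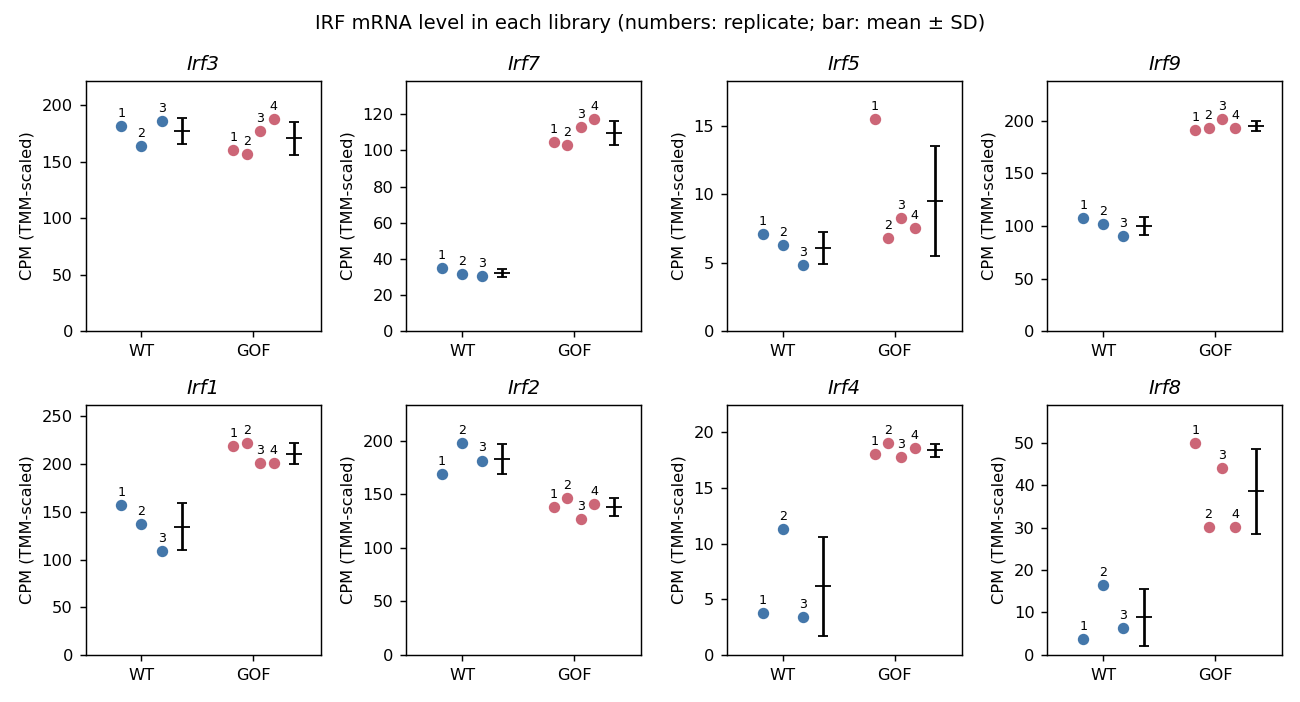
Level of each IRF mRNA in CPM (y axis, starting at 0) in the 3 WT and 4 GOF libraries, with replicate numbers beside the points and mean ± SD as a bar. The groups are apart for Irf1, Irf2, Irf4, Irf7, Irf8 and Irf9 and overlap for Irf3 and Irf5, where GOF replicate 1 stands alone at 15.5 CPM.

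Levels are CPM with totals scaled by the TMM method, and errors are SD. Irf7, the interferon-inducible amplifier of type I interferon production (ENSMUSG00000025498, mm10 chromosome 7, 141262706 to 141266481, minus strand), was at 34.8, 31.4 and 30.3 CPM in the WT libraries. In the GOF libraries it was at 105, 103, 113 and 117 CPM. All 4 GOF libraries lay far above all 3 WT libraries, and the spread within each group was small beside the gap. The log2 fold change was 1.77 with a standard error (SE) of 0.10 (adjusted p in edgeR = 6.23e-06), a 3.40-fold higher level. Over 18 alternatives the log2 fold change of Irf7 ran from 1.59 to 1.84.

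Irf9, the DNA-binding subunit of ISGF3 (ENSMUSG00000002325, mm10 chromosome 14, 55603571 to 55610030, plus strand), was at 108, 102 and 90.6 CPM in WT and at 191, 193, 201 and 193 CPM in GOF. The groups were apart, and the 4 GOF libraries varied by an SD of 4.53 CPM around 195 CPM. The log2 fold change and its SE were 0.96 ± 0.08 (adjusted p in edgeR = 6.70e-05), a 1.94-fold higher level. Irf9 shares 123 exon bases with Rnf31 on the same strand, whose counts were 1702 to 2029 in WT and 1853 to 2102 in GOF, so that reads in those bases cannot be assigned with certainty. On the opposite strand Irf1 shares 135 exon bases with Gm17334, Irf3 88 with Bcl2l12 and Irf7 45 with Phrf1.

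Irf3, which is made constitutively and is activated by phosphorylation (ENSMUSG00000003184, mm10 chromosome 7, 44997648 to 45002847, plus strand), was at 182, 164 and 186 CPM in WT and at 161, 157, 178 and 188 CPM in GOF. The groups overlapped over most of their range. Its log2 fold change of -0.05 had a 95% interval from -0.26 to 0.15 (edgeR adjusted p = 0.687), and the sign depended on the scaling, with 0.02 under total counts alone.

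Irf5, which acts downstream of Toll-like receptors in myeloid and B cells (ENSMUSG00000029771, mm10 chromosome 6, 29526625 to 29541871, plus strand), was at 7.11, 6.27 and 4.80 CPM in WT and at 15.5, 6.83, 8.24 and 7.52 CPM in GOF. GOF replicate 1 stood alone, and GOF replicate 2 lay below WT replicate 1. The log2 fold change of 0.65 did not pass the threshold (95% interval -0.06 to 1.36, edgeR adjusted p = 0.146), and without GOF replicate 1 it was 0.32 (edgeR adjusted p = 0.354). The summed myeloid markers were at 597 CPM in GOF replicate 1 and at 638 CPM in replicate 3, and Irf5 was at 15.5 and 8.24 CPM there. The part of myeloid cells in the Irf5 values was not tested. Irf5 shares 411 exon bases with Tnpo3 on the opposite strand, and Tnpo3 had 1768 counts in GOF replicate 1, 1096 to 1374 in the other GOF libraries and 1447 to 1805 in WT.

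**Figure D2:**
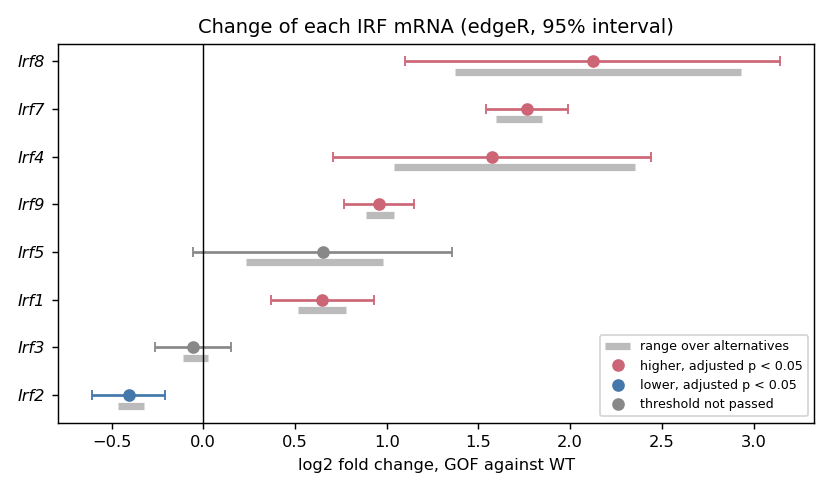
Log2 fold change of each IRF mRNA, GOF against WT (x axis), with the 95% interval of the edgeR fit, and below each point a grey bar for the range over the alternative analyses. The intervals of Irf3 and Irf5 include 0, and Irf8 and Irf4 have the widest intervals.

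Irf1 and Irf2, which compete for the same elements, moved in opposite directions. Irf1 (ENSMUSG00000018899, mm10 chromosome 11, 53770014 to 53778374, plus strand) was at 158, 137 and 109 CPM in WT and at 219, 222, 201 and 201 CPM in GOF. Every GOF library was above every WT library, with WT replicate 3 the lowest. For Irf1 the log2 fold change and its SE were 0.65 ± 0.12 (adjusted p in edgeR = 0.00427), a 1.57-fold higher level. Irf2 (ENSMUSG00000031627, mm10 chromosome 8, 46739745 to 46847458, plus strand) was at 169, 198 and 182 CPM in WT and at 138, 147, 127 and 141 CPM in GOF. Every GOF library lay below every WT library. Its log2 fold change and SE were -0.41 ± 0.09 (adjusted p in edgeR = 0.00762), a 1.33-fold lower level. Without GOF replicates 1 and 3 the call was lost (log2 fold change -0.36, edgeR adjusted p = 0.0734). Without GOF replicates 2 and 4 it stayed (log2 fold change -0.46, edgeR adjusted p = 0.0263).

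Irf4 (ENSMUSG00000021356, mm10 chromosome 13, 30749226 to 30766927, plus strand) was at 3.74, 11.3 and 3.41 CPM in WT, from 52, 164 and 49 counts, and at 18.03, 19.0, 17.8 and 18.6 CPM in GOF. The 4 GOF libraries were nearly level, with an SD of 0.554 CPM, whereas WT replicate 2 was about 3 times as high as the other WT libraries. The log2 fold change and its SE were 1.58 ± 0.38 (adjusted p in edgeR = 0.0134). Without WT replicate 2 the log2 fold change of Irf4 was 2.36 (edgeR adjusted p = 5.67e-05), and without WT replicate 1 or 3 it was 1.31 or 1.28 (edgeR adjusted p = 0.0411 and 0.0432). Without GOF replicates 1 and 3 it was 1.61 and without GOF replicates 2 and 4 it was 1.55, with edgeR adjusted p-values of 0.0608 and 0.0645.

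Irf8 (ENSMUSG00000041515, mm10 chromosome 8, 120736358 to 120756694, plus strand) was at 3.66, 16.5 and 6.41 CPM in WT, from 51, 239 and 92 counts, and at 49.98, 30.1, 44.03 and 30.2 CPM in GOF. The groups were apart, and Irf8 varied within both, with WT replicate 2 highest in its group and GOF replicates 1 and 3 above 2 and 4. The log2 fold change and its SE were 2.12 ± 0.45 (adjusted p in edgeR = 0.00734), a 4.35-fold higher level. Without WT replicate 2 the log2 fold change of Irf8 was 2.93 (edgeR adjusted p = 0.000586). Without GOF replicates 1 and 3 it was 1.76 and the call was lost (edgeR adjusted p = 0.0565). Without GOF replicates 2 and 4 it was 2.42 and the call stayed (edgeR adjusted p = 0.0195). In limma on log2(FPKM + 1), a scale that understates the change of low genes, it was 1.52, and 1.37 after quantile normalization (limma adjusted p = 0.00308 and 0.00411).

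B cell markers followed the same order over the libraries as Irf8. The 2 genes most like Irf8 among all genes with a mean of at least 5 CPM were Cd22, an inhibitory receptor of B cells, and Fcrl1, an Fc receptor-like protein of B cells, with Pearson correlations of 0.999 and 0.996 over the 7 libraries, points that share the step between the genotypes. Cd22 was at 2.44, 10.6 and 4.25 CPM in WT and at 25.1, 17.9, 24.7 and 17.0 CPM in GOF. The summed level of the 12 B cell markers was 32.3, 105 and 47.0 CPM in WT and 209, 110, 208 and 115 CPM in GOF. WT replicate 2 thus had a B cell marker sum near those of GOF replicates 2 and 4, and its Irf8 level of 16.5 CPM lay below their 30.1 and 30.2 CPM. The part of B cells in the Irf8 difference was not tested.

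Irf4 also had its highest WT value in WT replicate 2, and the plasma cell markers differed in how they ran beside it. Jchain, the joining chain of antibodies from plasma cells, was at 53.9 and 55.4 CPM in GOF replicates 1 and 3 and at 19.0 and 20.9 CPM in replicates 2 and 4, while Irf4 in the same order was at 18.03, 17.8, 19.0 and 18.6 CPM. Xbp1, a transcription factor of antibody secretion, was at 47.8, 99.4 and 39.0 CPM in WT and at 68.9, 69.2, 72.4 and 70.9 CPM in GOF. It was highest in WT replicate 2 and nearly level in GOF as Irf4 was, but did not pass the threshold (log2 fold change 0.18, edgeR adjusted p = 0.654). Mzb1, another plasma cell marker, was higher in GOF replicates 1 and 3 (5.08 and 4.87 CPM) than in 2 and 4 (2.62 and 1.99 CPM), as Jchain was. Xbp1 and Mzb1 were picked once their values were known. Prdm1, the gene of BLIMP1, fell from 20.2 to 8.91 CPM (edgeR adjusted p = 0.00623). The part of plasma cells in the Irf4 values was not tested. Csf1r and C1qa, macrophage genes, were at 2.16 to 3.44 and 0.139 to 0.620 CPM in WT and reached 63.8 and 51.0 CPM in GOF. Siglech, a marker of plasmacytoid dendritic cells, which carry much Irf7 and Irf8, had 0 counts in WT replicates 1 and 3 and was at 2.15, 0.383, 1.56 and 0.193 CPM in GOF. Irf7 was at 105 and 113 CPM in the GOF libraries with the most Siglech and at 103 and 117 CPM in the other GOF libraries. Siglech rested on 68 counts in the GOF libraries together, and the part of plasmacytoid dendritic cells in the Irf7 and Irf8 values was not tested.

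**Figure D3:**
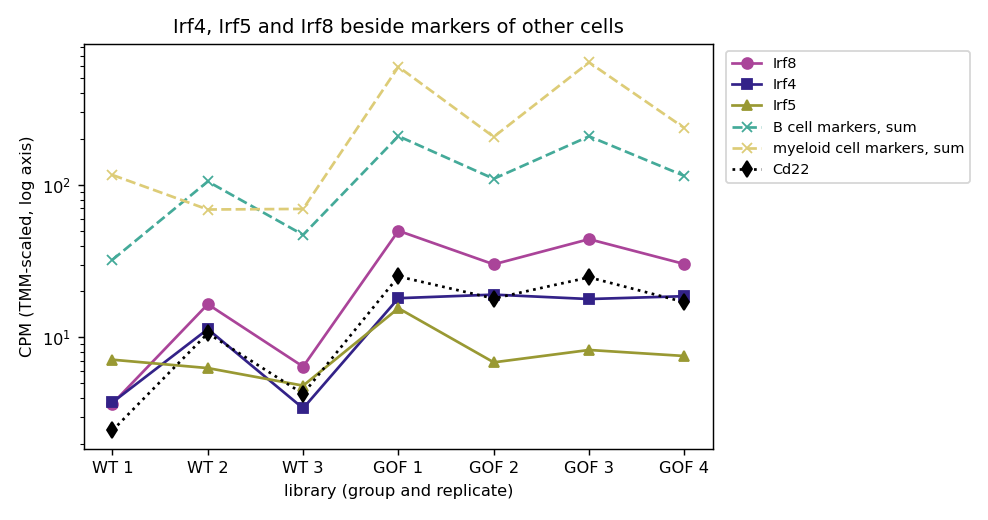
Levels in CPM (y axis, log scale) of Irf8, Irf4, Irf5 and Cd22 and the summed levels of the B cell and myeloid marker lists in each library (x axis). Irf8 and Cd22 rise and fall together, while Irf4 stays between 17.8 and 19.0 CPM in all 4 GOF libraries.

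Other genes most like a member by the same measure were Ggt5 and A430093F15Rik for Irf7 (0.999 each) and Parp3 and Maf for Irf9 (0.998 each). Smarcad1 and Igf2r were most like Irf4 (0.995 and 0.992), Clint1 and Tbc1d30 most like Irf2 (0.996 and 0.994), and Gm15753 and Arf4 most like Irf1 (0.986 and 0.984). For Irf5 they were Cox17 and B3gntl1 (0.981 and 0.940) and for Irf3 Smim20 and Gm6483 (0.977 and 0.968). Cox17, like Irf5, was highest in GOF replicate 1, at 46.6 CPM against 23.1 to 30.6 CPM in the other GOF libraries. For the members that differ between the genotypes, these correlations mostly carry the step between the groups.

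To compare the members with each other, levels were divided by the length of the longest principal transcript of GENCODE M21, giving CPM per kilobase. The lengths behind the deposited FPKM could not serve for this. They were 6421 bases for Irf7, whose locus spans 3776 bases, and 8582 bases for Irf9, whose locus spans 6460 bases. In WT cells Irf3 led with 87.3 ± 5.76 CPM per kilobase, followed by Irf2 (73.3 ± 5.76) and Irf1 (62.9 ± 11.5; SD, n = 3 throughout). The ranges of Irf2 and Irf1 overlapped. Irf9 stood at 40.7 and Irf7 at 16.8 CPM per kilobase, and Irf8, Irf5 and Irf4 lay between 3.11 and 1.29, each overlapping its neighbour in that order. In GOF cells Irf1 led with 98.7 ± 5.32 CPM per kilobase (SD, n = 4), followed by Irf3 at 84.1 and Irf9 at 79.1, whose ranges overlapped. Irf7 at 57.1 and Irf2 at 55.3 CPM per kilobase also overlapped, and Irf8 at 13.6 stood above Irf5 and Irf4 (4.25 and 3.85), which overlapped. On the deposited FPKM scale Irf3 and Irf2 had the highest means in both genotypes, with overlapping ranges in WT (72.4 and 71.4 FPKM) and Irf3 above Irf2 in GOF (73.5 and 56.8 FPKM).

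The summed level of the 8 members was 288 ± 13.2 CPM per kilobase in WT (SD, n = 3) and 396 ± 4.40 in GOF (SD, n = 4). Irf2 made up 25.5% ± 2.38 of that sum in WT (SD, n = 3) and 14.0% ± 0.940 in GOF (SD, n = 4). The share of Irf3 went from 30.4% to 21.2%, that of Irf9 from 14.1% to 19.99% and that of Irf7 from 5.83% to 14.4%, each with no overlap between the groups. Irf1 made up 21.8% ± 3.05 in WT and 24.9% ± 1.54 in GOF, with overlapping libraries. Irf8 made up 1.08% in WT and 3.42% in GOF, and Irf4 and Irf5 were at 0.973% and 1.07% in GOF.

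**Figure D4:**
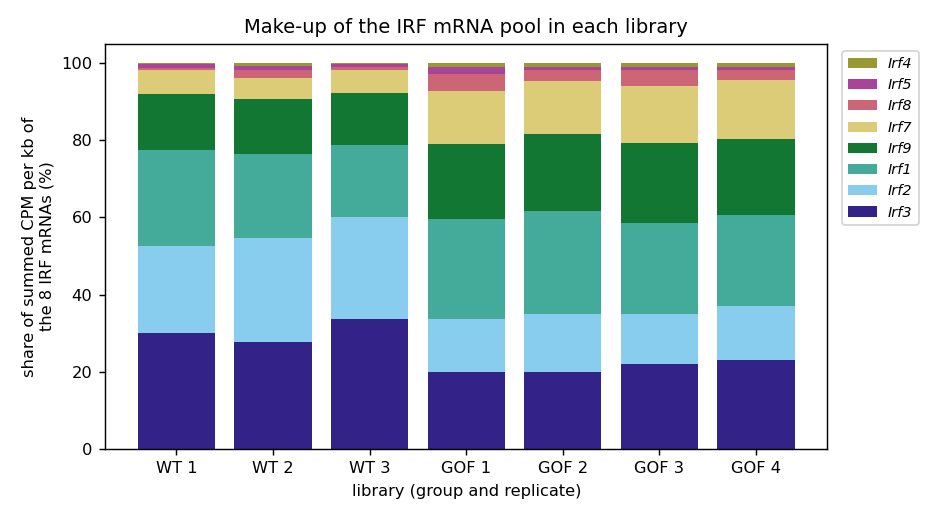
Share of each member in the summed CPM per kilobase of the 8 IRF mRNAs (y axis, percent) in each library (x axis). The bands of Irf7 and Irf9 are wider and those of Irf2 and Irf3 narrower in all 4 GOF libraries than in the 3 WT libraries.

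Ratios between members within a library do not depend on the scaling between libraries, and their difference between the genotypes does not depend on the gene lengths. The values and signs of the ratios do rest on the lengths behind the deposited FPKM. Per kilobase of transcript, Irf1 was above Irf2 in GOF (98.7 and 55.3 CPM per kilobase), where their FPKM ratios are negative. In WT, Irf4 was below Irf8 per kilobase (1.29 and 3.11), while their mean log2 FPKM ratio was 0.36. Irf7 was below Irf3 on both scales. The log2 ratio of Irf1 to Irf2 in FPKM was -1.32, -1.75 and -1.95 in WT and -0.54, -0.62, -0.55 and -0.70 in GOF. It was higher in every GOF library, by 1.07 on average, a 2.102-fold shift. The log2 ratio of Irf7 to Irf3 was -3.82, -3.82 and -4.06 in WT and -2.06, -2.04, -2.09 and -2.12 in GOF, a difference of 1.82 or 3.54-fold. For both ratios the exact 2-sided permutation test gave p = 0.0571, the smallest value that 3 against 4 libraries allow, and 0.0857 adjusted over the 3 ratios tested. The log2 ratio of Irf4 to Irf8 overlapped between the groups, with 0.86, 0.29 and -0.07 in WT and -0.64, 0.18, -0.47 and 0.13 in GOF (difference -0.56; exact permutation test, 2-sided, p = 0.229, adjusted 0.229).

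**Figure D5:**
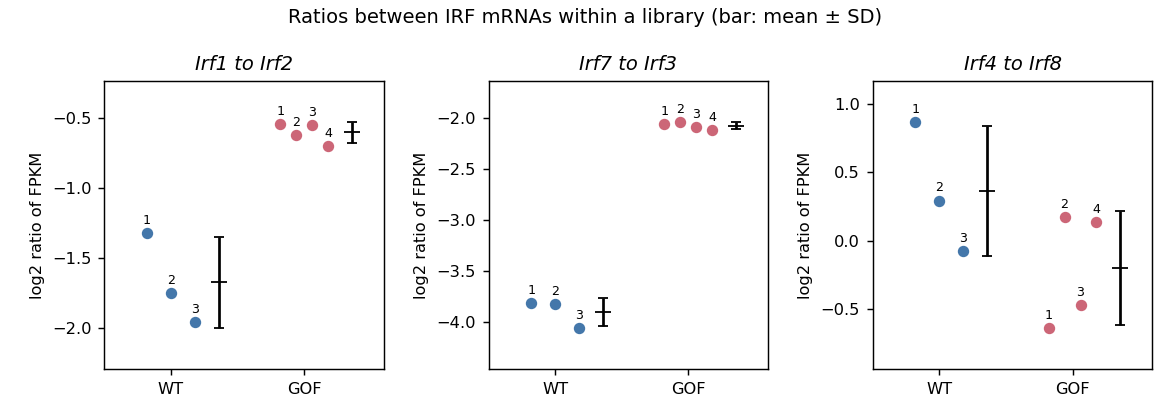
Log2 ratios of FPKM between pairs of IRF mRNAs within each library (y axis), with replicate numbers and mean ± SD. The GOF libraries lie above all WT libraries for Irf1 to Irf2 and for Irf7 to Irf3, and overlap with them for Irf4 to Irf8.

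Upstream of the interferon-induced members, the interferon receptors, kinases and STATs moved both ways. Of 9 genes tested 4 rose and 2 fell, with a median log2 fold change of -0.16 against 0.01 for all tested genes. The shares over all tested genes were 16.8% higher and 14.5% lower. Ifngr1, the ligand-binding chain of the interferon gamma receptor, was at 1084, 1164 and 671 CPM in WT and at 139, 149, 136 and 162 CPM in GOF, and it fell by 2.73 on the log2 scale (edgeR adjusted p = 1.23e-05). Jak2, the kinase of its partner chain, fell from 334 to 157 CPM (edgeR adjusted p = 0.000142), and Stat2, a subunit of ISGF3, rose from 85.1 to 121 CPM (edgeR adjusted p = 0.0181). Some single libraries moved the counts of this list. Without WT replicate 3, 1 gene rose, beside 1673 higher over all genes. When any other single library was left out, 3 or 4 rose. Without WT replicate 1 or GOF replicate 2, 4 fell, beside 1714 and 1819 lower over all genes. When any other single library was left out, 2 fell. Without GOF replicates 1 and 3, 2 rose, and without GOF replicates 2 and 4, 1 rose. The calls over all genes went from 2130 higher to 1074 and 1764 under these last 2 settings.

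Of 8 interferon genes listed, Ifnb1, Ifna1, Ifna2, Ifna4, Ifnl3, Ifnk and Ifne had 0 counts in all 7 libraries. Ifng, made by T and NK cells, had 9 counts in the WT libraries together and 260 in the GOF libraries together. Its level was 0.208 ± 0.183 CPM in WT (n = 3) and 4.10 ± 1.05 CPM in GOF (n = 4), and the log2 fold change and its SE were 4.24 ± 0.62 (adjusted p in edgeR = 0.00118). Of 12 NK and CD8 T cell markers 10 rose in the same comparison, and their part in the Ifng difference was not tested. The 2 that did not rise were the CD8 chain genes Cd8a (9.67 CPM in WT and 5.63 CPM in GOF, edgeR adjusted p = 0.0972) and Cd8b1 (24.0 and 20.5 CPM, edgeR adjusted p = 0.300), named after their values were seen.

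Among the sensors, adaptors and kinases that activate IRF3, IRF5 and IRF7, 7 of 16 rose and 1 fell (median log2 fold change 0.47). Of all tested genes 16.8% were called higher and 14.5% lower. Without GOF replicates 1 and 3, 4 of the list rose, while the calls over all genes went from 2130 to 1074 higher. Without GOF replicates 2 and 4, 5 rose, beside 1764 higher over all genes. Ifih1, the RNA sensor MDA5, rose from 16.0 to 43.8 CPM (edgeR adjusted p = 5.79e-05), Ddx58, the RNA sensor RIG-I, from 119 to 199 CPM (edgeR adjusted p = 0.00253), and Tmem173, the adaptor STING, from 162 to 233 CPM (edgeR adjusted p = 0.00131). Traf6, a ubiquitin ligase of Toll-like receptor signalling, fell from 155 to 97.1 CPM (edgeR adjusted p = 0.000958). Tbk1 and Ikbke, the kinases that phosphorylate IRF3 and IRF7, did not pass the threshold, with log2 fold changes of -0.05 and -0.15 (chosen after their values were seen).

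Of 17 partner and co-factor genes 15 had enough counts to be tested, 9 rose and 1 fell (median log2 fold change 0.56). The shares called among all tested genes were 16.8% for a rise and 14.5% for a fall. Leaving out GOF replicates 1 and 3 took the list from 9 to 5 rising genes. The same step took the rising genes of the whole data from 2130 to 1074. Junb, an AP-1 subunit that pairs with BATF and IRF4, rose from 372 to 1886 CPM (edgeR adjusted p = 3.12e-05). Bcl6, a repressor whose expression IRF4 influences in B and T cells, rose from 8.47 ± 2.43 CPM in WT to 43.0 ± 1.21 CPM in GOF (edgeR adjusted p = 4.10e-05). Jun, another AP-1 subunit, rose from 186 to 375 CPM (edgeR adjusted p = 0.00340). Irf2bpl, a relative of the IRF2-binding co-repressors, rose from 118 to 188 CPM (edgeR adjusted p = 0.000335). The member that fell was Prdm1, a repressor induced by IRF4 (20.2 to 8.91 CPM, edgeR adjusted p = 0.00623, picked once its value was known).

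Of 24 interferon-induced targets of IRFs and ISGF3, 21 rose and 0 fell, with a median log2 fold change of 1.85. Among all tested genes 16.8% were called higher and 14.5% lower. Mx1, an antiviral GTPase with ISRE elements, Rtp4, Ifit3 and Cmpk2 had log2 fold changes of 4.89, 2.64, 2.88 and 3.00, with edgeR adjusted p-values of at most 9.90e-06. The 3 that did not pass were Psmb8, an immunoproteasome subunit (log2 fold change 0.21), Nlrc5, an activator of MHC class I genes (0.11), and Cxcl10, a chemokine (0.60), chosen after their values were seen. Psmb9, the immunoproteasome subunit whose promoter IRF1 binds, rose from 86.4 to 172 CPM (edgeR adjusted p = 0.000138, picked once its value was known).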

How the data were processed

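RNA sequencing covered 3 WT and 4 GOF libraries, 1 mouse each. The authors deposited 1 table with raw counts and FPKM values. The submitters' processing notes name HISAT2 2.0.4, Cufflinks 2.1.1, Cuffdiff and mm10. No label used here gives their roles, the counting rule or strandedness. The deposited FPKM equalled the count over a length fixed per gene and the library total, within 0.1% for 100% of values. Groups and replicate numbers came from the sample titles. Coordinates are as deposited. No 2 libraries of a group agreed within sampling noise.

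The counts were tested with edgeR 4.0.16 (R 4.3.3): filterByExpr, TMM, quasi-likelihood, Benjamini-Hochberg at 0.05 over 12668 genes. It was tested on simulated data. The SE came from the fold change and the F statistic. Levels per gene length used GENCODE M21. Alternatives used DESeq2 1.42.0, limma 3.58.1 on log2(FPKM + 1), other scalings and filters, a replicate block and left-out libraries. The precision is limited by 3 and 4 animals. Ratios were compared with exact permutation tests. Overlapping genes are uncertain.

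The members and lists were chosen with earlier results of these data known. Named genes are the members, up to 4 called genes per pathway list with the smallest p, fixed cell markers and, per member, the 2 genes with the highest correlation of log2(CPM + 0.5). Some genes of this rule are not reported here.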

Additional observations from a re-analysis of the deposited data

Results flagged for a closer look

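Irf5 in GOF replicate 1, at 15.5 CPM, stood apart from GOF replicates 2, 3 and 4, at 6.83, 8.24 and 7.52 CPM. Its gap to the nearest of them was 0.838 of the range of the group of 4, above the 95% critical value of Dixon's test. The check covered 12 items, and chance marks about 1 in 20 groups.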

How the results depend on the processing

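Irf1, Irf7 and Irf9 kept their direction and their call under all 18 alternatives. Among genes with a mean FPKM of at least 5, 3 members were called higher, since Irf4, Irf5 and Irf8 were not tested there. Without GOF replicates 1 and 3, 3 members were called higher and 0 lower, beside 1074 higher and 1050 lower over all genes. Without GOF replicates 2 and 4 these numbers were 4 and 1, beside 1764 and 1358. Irf3 turned positive with total counts alone (0.0217), after quantile normalization in limma (0.0251) and in limma with pseudocounts of 1 and 0.1 (0.0198 and 0.0201), without passing the threshold. Irf5 stayed above the threshold in adjusted p in each of its 17 alternatives (0.0695 to 0.597). With the replicate block, 5 members were called higher and 1 lower. Same-numbered libraries correlated at 0.03, 0.15 and -0.04 in their deviations, and no label ties the numbers to a shared litter or batch. The block took the counts over all genes to 1677 higher and 1519 lower. Leaving out single libraries moved the difference in the ratio of Irf1 to Irf2 within 0.93 to 1.25, of Irf7 to Irf3 within 1.74 to 1.86 and of Irf4 to Irf8 within -0.78 to -0.31.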
